A study of Mus musculus with 20 samples.

Results

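Protein phosphatase 2A (PP2A) is assembled from a catalytic C subunit, a scaffold A subunit and 1 of several regulatory B subunits, and the mRNAs of the scaffold and B subunits were measured in fat depots that lost α4. The genes were taken as the rows of the deposited table whose symbol is Ppp2r1a or Ppp2r1b (scaffold), Ppp2r2a or Ppp2r2d (B55 family), Ppp2r3a (PR72 family), or Ppp2r5a, Ppp2r5b, Ppp2r5c, Ppp2r5d or Ppp2r5e (B56 family). All 10 were found among the 25219 genes of the table, and all 10 passed the filter on low counts in every comparison. RNA was sequenced from inguinal white adipose tissue (iWAT) and brown adipose tissue (BAT) of male mice on a mixed C57Bl/6 background, with 5 Control and 5 Ai-α4KO libraries for each depot. Every mouse received 5 injections of tamoxifen at 100 mg/kg over 6 days from 2 months of age, and tissue was taken 1 week after recombination. Ai-α4KO mice carried floxed alleles of Igbp1, the gene of α4, together with the tamoxifen-activated Adiponectin-CreERT2 transgene, which acts in adipocytes and leaves the gene intact in the other cells of a depot. Control mice are called WT in the labels, and by the study's methods they carried the floxed alleles without the transgene. The labels do not tell whether the same mice gave both depots, and they do not say in so many words that the 5 libraries of a group are 5 animals, so the p-values measure the spread between these libraries.

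In the PP2A trimer the A subunit is a bent rod of helical repeats that holds the C subunit at one end and a B subunit at the other. The B subunit docks substrates and sets where in the cell the enzyme works, so enzymes with the same catalytic core act on different proteins. B55 trimers are known for reversing mitotic phosphorylation and B56 trimers for binding short LxxIxE motifs in their partners, while PP2A as a whole removes phosphates from AKT and other kinases of insulin signalling. The α4 protein binds C subunits that are not in a trimer and protects them from degradation.

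Expression between libraries is given as CPM, the expected count scaled to 1 library total after TMM normalization over all 20 libraries, and levels of different genes are compared only as FPKM, which divides by transcript length. Changes are given as log2FC, the log2 fold change, with its standard error (SE). A gene was called where edgeR's quasi-likelihood test gave an FDR, the Benjamini-Hochberg adjusted p over all genes tested, below 0.01. The libraries held between 24023371 and 50384446 counts. Igbp1 was at 67.2 ± 7.01 CPM in Control iWAT against 10.8 ± 0.394 CPM in Ai-α4KO iWAT (SD, n = 5 each), and at 93.9 ± 7.29 CPM in Control BAT against 17.0 ± 4.83 CPM in Ai-α4KO BAT (SD, n = 5 each). The log2FC of Igbp1 in iWAT was -2.65 (FDR = 4.99e-08) and its value in BAT was -2.504 (FDR = 2.2e-07), and no library of one genotype overlapped the other. The 4 brown adipocyte markers summed to between 7169 and 11151 CPM in Control BAT and between 86.9 and 801 CPM in Control iWAT, which matches the depot labels.

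The depots also differed between genotypes in the cell types their markers stand for, and these markers moved with every genotype comparison below. Of 8 adipocyte markers, 7 were lower in Ai-α4KO iWAT and 6 in Ai-α4KO BAT, with median log2FCs of -1.78 and -1.77. All 7 macrophage markers tested were higher in both, with medians of 2.44 in iWAT and 4.0 in BAT, and their summed level rose from 1087 to 1830 CPM in Control iWAT libraries to 7115 to 9539 CPM in Ai-α4KO iWAT, and from 218 to 489 CPM to 4070 to 6715 CPM in BAT. All 3 neutrophil and all 3 cycling-cell markers were higher in both depots. Endothelial markers were lower, 3 of 4 in iWAT and 4 of 4 in BAT. Brown adipocyte markers were lower, 3 of 4 in iWAT and 2 of 4 in BAT, where their sum was between 1352 and 2719 CPM in Ai-α4KO libraries. In BAT 2 of 4 T cell and 2 of 4 fibroblast and progenitor markers were higher, and in iWAT none of either passed. Of 2 lymph node stroma markers 1 was higher in each depot, with a sum of 2.99 to 11.99 CPM in Control BAT and 64.9 to 236 CPM in Ai-α4KO BAT, and of the B cell markers tested 1 of 5 was lower in iWAT and 1 of 3 higher in BAT. In these bulk samples fewer cells of a type and less RNA per cell cannot be told apart. Skeletal muscle markers summed to between 12501 and 40427 CPM in Ai-α4KO BAT and between 846 and 9159 CPM in Control BAT, and 6 of the 8 were called higher. In iWAT only Control library 4 (6648 CPM) and Ai-α4KO library 1 (5279.6 CPM) had muscle markers above 171 CPM. Summed B cell markers reached 431 CPM in Control iWAT library 1 and 171 CPM in library 4, against at most 11.7 CPM in the other iWAT libraries. None of the markers in these lists was at 0 throughout a group. In a further list of 3 skin and mammary epithelium markers, 1 gene was at 0 throughout Control BAT. That list summed to 24.7 and 8.45 CPM in Control iWAT libraries 1 and 4 and to 17.7 and 39.4 CPM in Ai-α4KO iWAT libraries 1 and 2. Its sum was at most 1.22 CPM in the other iWAT libraries. The part of these cell types in the results was not tested, except where a value with a marker score or without a library is given. The muscle score in BAT falls outside this exception. That score, the mean log2 CPM of the 8 muscle markers, was higher in every Ai-α4KO BAT library than in every Control BAT library. A BAT fit with it cannot separate muscle from genotype, and is no test of the part of muscle.

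Promoter windows in RefSeq, from 250 bases before to 50 bases after a start site (build GRCm38.p6, the assembly of the table's mm10 coordinates), were matched to the members by symbol. For 7 members a window sits at the start given in the table, for Ppp2r5c the nearest window starts 343 bases away and was not used, and none was listed for Ppp2r2a and Ppp2r5e. The windows of Ppp2r5a, Ppp2r5d and Ppp2r2d are printed because these 3 genes were lower in Ai-α4KO BAT in the main test and in every one of the 20 alternative settings run for single members. The sequences read 5′ to 3′ on the gene's own strand, with Ppp2r5a at chr1:191396992-191397291 (minus strand), Ppp2r5d at chr17:46704953-46705252 (minus strand) and Ppp2r2d at chr7:138846136-138846435 (plus strand). Capitals mark any of 6 motifs searched on both strands, namely the CCAAT box, the GC box spelled GGGCGG, the TATA box spelled TATAAA, the E-box spelled CACGTG, the ETS motif spelled CCGGAAG and the cAMP response element spelled TGACGTCA, with overlapping matches joined.
Ppp2r5a: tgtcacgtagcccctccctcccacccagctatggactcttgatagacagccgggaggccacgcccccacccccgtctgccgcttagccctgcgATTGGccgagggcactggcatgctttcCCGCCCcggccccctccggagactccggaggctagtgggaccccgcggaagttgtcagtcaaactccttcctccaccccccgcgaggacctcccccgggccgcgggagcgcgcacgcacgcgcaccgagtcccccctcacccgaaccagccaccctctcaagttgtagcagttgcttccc
Ppp2r5d: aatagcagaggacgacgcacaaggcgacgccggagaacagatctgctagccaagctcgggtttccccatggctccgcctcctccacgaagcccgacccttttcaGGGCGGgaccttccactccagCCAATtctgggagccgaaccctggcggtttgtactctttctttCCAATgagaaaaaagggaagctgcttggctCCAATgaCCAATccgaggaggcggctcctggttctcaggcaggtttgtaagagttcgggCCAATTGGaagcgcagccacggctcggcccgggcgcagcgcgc
Ppp2r2d: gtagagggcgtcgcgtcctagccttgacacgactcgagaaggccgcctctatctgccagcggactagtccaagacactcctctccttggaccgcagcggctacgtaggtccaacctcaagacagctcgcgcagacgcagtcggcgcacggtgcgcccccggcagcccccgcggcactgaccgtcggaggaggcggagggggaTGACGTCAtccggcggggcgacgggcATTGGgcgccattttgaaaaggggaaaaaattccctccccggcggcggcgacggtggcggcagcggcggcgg

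CCAAT, the box bound by NF-Y, occurs in 5 of the 7 members' windows and in 37.4% of all 32851 windows in RefSeq. The Ppp2r5d window holds it at 6 places, the last a pair that overlap on opposite strands, and 0.0791% of all windows hold as many, a count chosen for display after it was seen. GGGCGG, the GC box, is in 6 of the 7 windows and in 35.7% of all windows. The Ppp2r2d window is the 1 of 7 without it, and the only one with TGACGTCA, the cAMP response element, which is in 1.79% of all windows. CCGGAAG, an ETS motif, is in the Ppp2r1a window alone (8.86% of all windows). TATAAA (13.6%) and CACGTG (7.15%) were in none of the 7. GC content ran from 60.3% in Ppp2r5d to 69.0% in Ppp2r5a, against a median of 52.7% over all windows. These are matches of letters and not evidence of binding.

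Ppp2r5a was the most abundant of the 10 mRNAs per length in all 4 groups. On the FPKM scale it was at 244 to 365 in Control iWAT libraries and 280 to 419 in Control BAT, and Ppp2r1a, next in order, was at 69.5 to 85.4 in Control iWAT and 60.4 to 82.2 in Control BAT. These ranges do not overlap, and the order of these first 2 held in Ai-α4KO iWAT and BAT. In Control iWAT the order went on with Ppp2r1b (34.4 to 57.6 FPKM), Ppp2r2d (21.2 to 28.9), Ppp2r5d (19.2 to 23.7), Ppp2r5b (10.3 to 24.3), Ppp2r2a (11.6 to 17.0), Ppp2r5c (12.4 to 14.9), Ppp2r5e (7.24 to 9.19) and Ppp2r3a (2.78 to 7.51). From Ppp2r2d to Ppp2r5c each gene overlapped the next in its library range. In Control BAT Ppp2r2d (35.6 to 49.9 FPKM) came next and above every gene ranked below it, and Ppp2r3a (6.60 to 13.0) and Ppp2r5e (7.49 to 10.5) overlapped at the end.

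**Figure D1:**
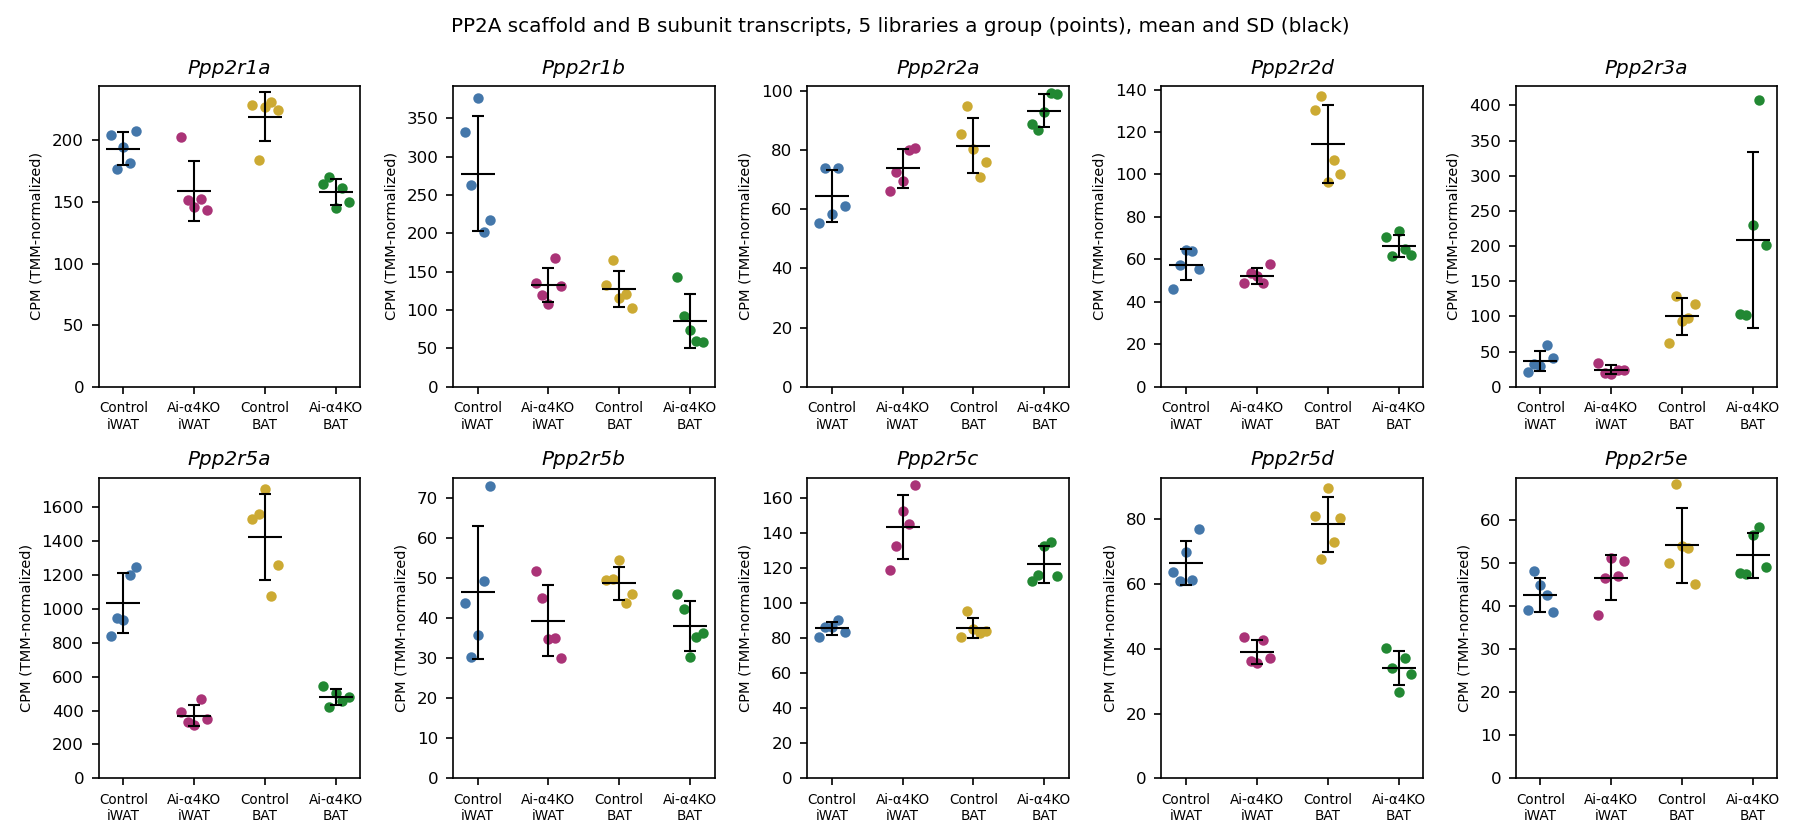
Normalized CPM of each PP2A scaffold and B subunit gene (y axis, from 0) in the 4 groups (x axis), with 1 point per library and the mean and SD of 5 libraries in black. Ppp2r5a and Ppp2r5d libraries of Ai-α4KO mice lie below every Control library of the same depot, Ppp2r5c libraries lie above, and Ppp2r3a spreads from 101 to 408 CPM in Ai-α4KO BAT.

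In Ai-α4KO iWAT 3 of the 10 subunit genes fell, Ppp2r5a, Ppp2r1b and Ppp2r5d, and 1 rose, Ppp2r5c. Over all 14604 genes tested 18.8% were called lower and 21.5% higher, so 3 lower and 1 higher of 10 is close to the background of this comparison. Ppp2r5a and Ppp2r1b fell at least 2-fold, where 10.7% of all genes did, and 11.3% rose that far with none of the subunit genes among them. In 4 subunit genes no library of one genotype overlapped the other, against 39% of all genes. The median log2FC of the 10 was -0.26, and that of all genes 0.01.

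In Ai-α4KO BAT 4 of the 10 fell, Ppp2r5a, Ppp2r5d, Ppp2r2d and Ppp2r1a, and Ppp2r5c rose again. Among 14344 genes tested 24.8% were called lower and 25% higher. Ppp2r5a and Ppp2r5d fell at least 2-fold, against 13.3% of all genes, and 18.2% of all genes rose at least 2-fold with no subunit gene called among them. Libraries of the genotypes did not overlap in 5 of the 10 and in 47.6% of all genes. The median was -0.45 for the 10 and -0.03 for all genes. With the muscle marker score as a covariate 3 of the 5 calls were left, Ppp2r5a, Ppp2r5d and Ppp2r2d, where 28.1% of all genes were called in that fit. The score did not overlap between the genotypes in BAT, so the fit cannot tell muscle from genotype in the calls lost or left. Without Ai-α4KO BAT library 1 the number called was 8, against 46.4% of all genes in the same fit.

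**Figure D2:**
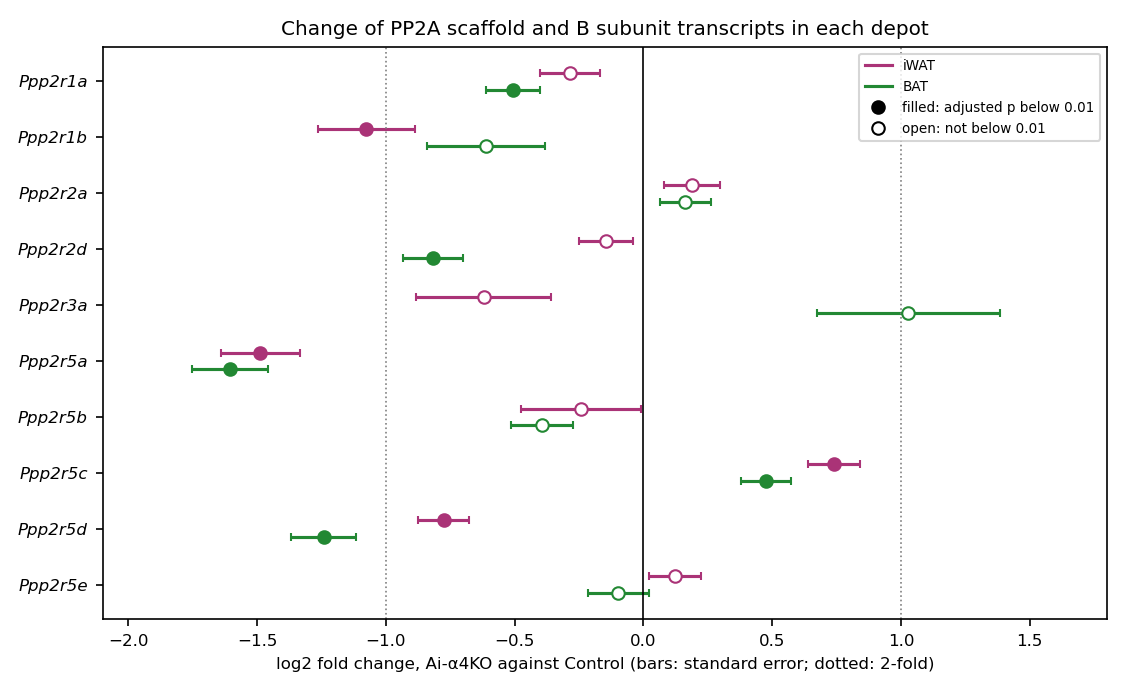
Log2 fold change of Ai-α4KO against Control (x axis) for each subunit gene (y axis) in iWAT and BAT, with bars for the SE, filled points for an FDR below 0.01 and dotted lines at 2-fold. Ppp2r5a sits at -1.49 in iWAT and -1.61 in BAT, Ppp2r5c is to the right of 0 in both, and Ppp2r3a lies on opposite sides of 0 with open points.

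Of the scaffold subunits, Ppp2r1a encodes Aα, the form most PP2A trimers contain. It was at 204, 177, 195, 182 and 207 CPM in the Control iWAT libraries and at 202, 151, 146, 152 and 143 CPM in Ai-α4KO iWAT. Ai-α4KO library 1 stood among the Control libraries and the other 4 lay below all of them. The log2FC was -0.28 (SE 0.12, FDR = 0.0567), and without that library it was -0.39 with an FDR of 0.00275. BAT libraries were at 228, 184, 227, 231 and 225 CPM in Control and at 165, 170.4, 145, 161 and 149.7 CPM in Ai-α4KO libraries. All 5 Ai-α4KO libraries were below the lowest Control library, and the log2FC was -0.51 (SE 0.10, FDR = 0.00119). The call was lost with library size in place of TMM factors (-0.24, FDR = 0.102), with limma on log2(FPKM + 1) (-0.23, FDR = 0.0799) and with the muscle score (-0.42, FDR = 0.0562). It was also lost in limma on log2(FPKM + 0.1) (-0.24, FDR = 0.0827) and with the replicate block (-0.50, FDR = 0.0104).

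Ppp2r1b encodes the Aβ scaffold, which takes the same place in the trimer and is less abundant in most tissues. Its Control iWAT libraries were at 332, 263, 376, 202 and 217 CPM and its Ai-α4KO iWAT libraries at 135, 120.05, 109, 167 and 131 CPM. The groups did not overlap, with Control libraries spread more widely than Ai-α4KO ones, and the log2FC was -1.08 (SE 0.19, FDR = 5.92e-04). In BAT it was at 133, 166, 115, 121 and 102 CPM in Control and at 143, 92.1, 74.3, 59.3 and 59.0 CPM in Ai-α4KO libraries. Ai-α4KO library 1 was higher than 4 of the 5 Control libraries and the other 4 were below all Control libraries. The log2FC in BAT was -0.61 (SE 0.23, FDR = 0.0336), and -0.86 without that library (FDR = 0.00121). Without Ai-α4KO library 4, the one highest in muscle markers, it was -0.44 (FDR = 0.124), and with the muscle score -0.30 (FDR = 0.461).

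The ratio of the scaffold paralogs is free of library scaling. On FPKM, Ppp2r1b stood to Ppp2r1a at a geometric mean of 0.582 in Control iWAT (0.435 to 0.801 over libraries) and 0.345 in Ai-α4KO iWAT (0.278 to 0.457). The difference was -0.75 on the log2 scale (exact permutation test, two-sided, p = 0.0159, adjusted p = 0.0212 over the 4 ratio tests). In BAT the ratio was 0.239 in Control (0.189 to 0.373) and 0.212 in Ai-α4KO libraries (0.153 to 0.361), a difference of -0.17 that was within the spread (exact permutation test, two-sided, p = 0.54, adjusted p = 0.54). The Control iWAT ratio lay above the Control BAT ratio in every library. As a share of scaffold FPKM, Ppp2r1b made up 37.0% ± 5.98 in Control iWAT, 25.8% ± 3.75 in Ai-α4KO iWAT, 19.6% ± 4.44 in Control BAT against 17.9% ± 5.27 in Ai-α4KO BAT (SD, n = 5 each).

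Of the B55 subunits, Ppp2r2a encodes B55α, a form found in most cells. Its CPM ranged from 55.3 to 74.0 in Control iWAT, 66.0 to 80.8 in Ai-α4KO iWAT, 70.9 to 94.7 in Control BAT and 86.7 to 99.4 in Ai-α4KO BAT. Genotypes overlapped in both depots, with log2FCs of 0.19 in iWAT (FDR = 0.166) and 0.16 in BAT (FDR = 0.173). With library size in place of TMM factors the BAT value was 0.42 and passed (FDR = 0.00174), and limma on log2(FPKM + 1) gave 0.41 (FDR = 0.00119).

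Ppp2r2d encodes B55δ, known for holding back mitotic entry until ENSA and ARPP19 inhibit it. It was at 46.3, 57.4, 64.5, 64.1 and 55.4 CPM in Control iWAT libraries and at 48.8, 53.7, 52.1, 48.8 and 57.8 CPM in Ai-α4KO iWAT. These overlapped, and the log2FC was -0.15 (SE 0.10, FDR = 0.256). The BAT libraries were at 130.5, 137, 96.7, 107 and 100.1 CPM in Control and at 70.4, 61.5, 73.3, 64.9 and 62.0 CPM in Ai-α4KO libraries. Here the genotypes did not overlap, with Ai-α4KO the lower, and the log2FC was -0.82 (SE 0.12, FDR = 7.94e-05). With the muscle score it stayed called in BAT. The Ai-α4KO BAT libraries came down to the range just above Control iWAT, with 2 of the 5 below the highest Control iWAT library.

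The FPKM ratio of Ppp2r2d to Ppp2r2a fell in both depots. In iWAT it was 1.755 in Control (1.53 to 2.17) and 1.39 in Ai-α4KO libraries (1.20 to 1.47), a log2 difference of -0.33 (exact permutation test, two-sided, p = 0.00794, adjusted p = 0.0159), and no smaller p can be had from groups of 5. The BAT ratio was 2.74 in Control (2.37 to 3.0) and 1.40 in Ai-α4KO libraries (1.23 to 1.56), a log2 difference of -0.97 (exact permutation test, two-sided, p = 0.00794, adjusted p = 0.0159). The Ai-α4KO libraries of the depots overlapped in this ratio, while the Control libraries of the depots did not. In iWAT the ratio combines log2FCs of -0.15 for Ppp2r2d and 0.19 for Ppp2r2a, neither of which passed by itself.

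**Figure D3:**
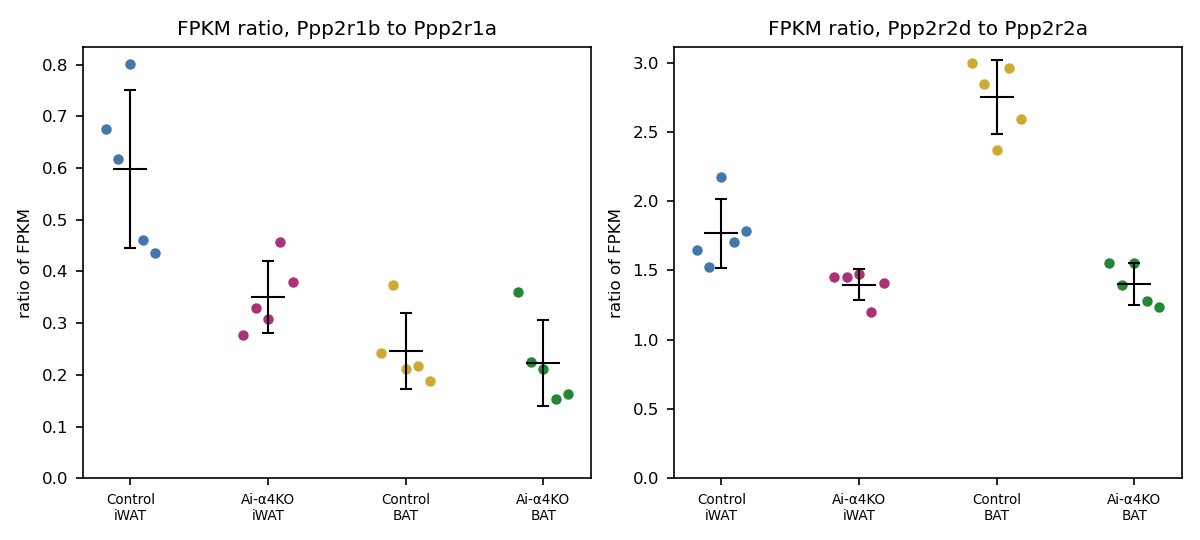
FPKM ratio of Ppp2r1b to Ppp2r1a and of Ppp2r2d to Ppp2r2a (y axes, from 0) in the 4 groups, with 1 point per library and the arithmetic mean and SD of 5 libraries in black. The Ppp2r2d to Ppp2r2a ratio lies between 2.37 and 3.0 in Control BAT and between 1.20 and 1.56 in both Ai-α4KO groups.

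In the PR72 family, Ppp2r3a encodes the calcium-binding B subunits PR72 and PR130, of which PR72 is known from heart and skeletal muscle. It was at 21.7, 32.1, 30.2, 59.6 and 40.3 CPM in Control iWAT libraries and at 34.3, 19.6, 18.1, 24.2 and 23.9 CPM in Ai-α4KO iWAT. The highest library of each group was the one with the most muscle marker RNA, Control 4 and Ai-α4KO 1, and the log2FC was -0.62 (SE 0.26, FDR = 0.0632). BAT values were 61.9, 129, 93.5, 98.4 and 117 CPM in Control and 104, 101, 230.3, 408 and 201 CPM in Ai-α4KO libraries. The groups overlapped, with Ai-α4KO library 4 far above the rest and also highest in muscle markers (40427 CPM). The log2FC in BAT was 1.03 (SE 0.36, FDR = 0.0236), DESeq2 called it (1.06, FDR = 0.00413), and with the muscle score it was -0.09 (FDR = 0.863). Muscle and genotype cannot be separated in the fit with that score, which did not overlap between the genotypes in BAT. Control BAT library 1 was lowest of the Control BAT libraries both in Ppp2r3a and in muscle markers (846 CPM). Ai-α4KO BAT libraries 1 and 2 held more muscle marker RNA (12501 and 13525 CPM) than every Control BAT library. In Ppp2r3a they lay below Control BAT libraries 2 and 5.

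**Figure D4:**
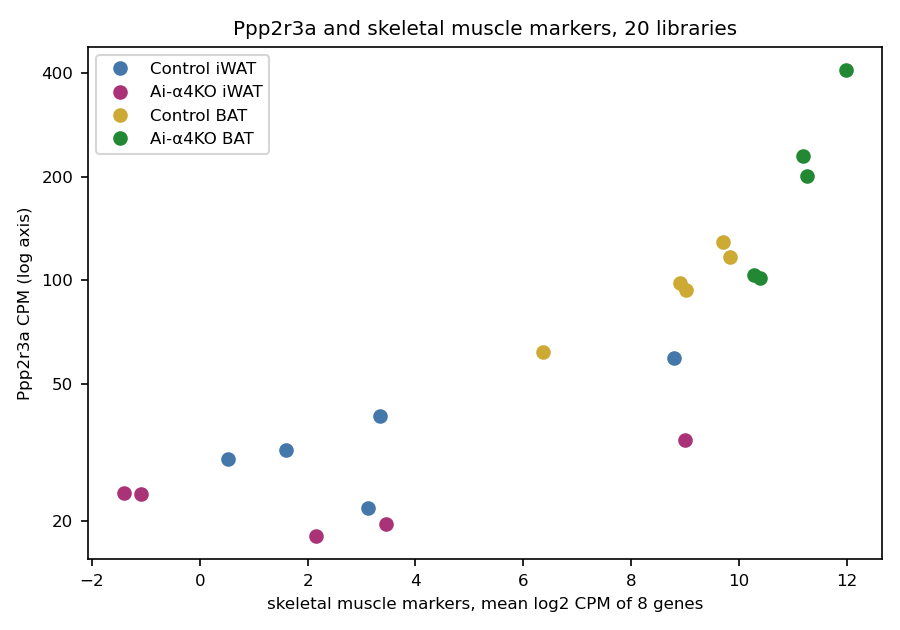
CPM of Ppp2r3a (y axis, log scale) against the mean log2 CPM of 8 skeletal muscle markers (x axis) in 20 libraries, coloured by group. The Ai-α4KO BAT library with the highest marker score has the highest Ppp2r3a value, 408 CPM, and the Control iWAT library with a high score has 59.6 CPM. The Ai-α4KO iWAT library with a high score has 34.3 CPM, below Control iWAT library 5 (40.3 CPM) with a score of 3.34.

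In the B56 family, Ppp2r5a encodes B56α, and its mRNA showed the largest fold change of the 10 in both depots. It was at 841, 947, 936, 1203 and 1246 CPM in Control iWAT libraries and at 389.7, 332, 315, 467 and 349 CPM in Ai-α4KO iWAT. The genotypes stood well apart, with no library in the gap between 467 and 841 CPM, and the log2FC was -1.49 (SE 0.15, FDR = 1.73e-05). In BAT it was at 1534, 1559.55, 1707, 1076 and 1258 CPM in Control and at 545, 419, 504, 455 and 480.4 CPM in Ai-α4KO libraries. Again no library overlapped, and the log2FC was -1.61 (SE 0.15, FDR = 2.15e-06). Over all alternative settings the iWAT value lay between -1.61 and -1.35 and the BAT value between -1.70 and -1.32.

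Ppp2r5d encodes B56δ, a form abundant in brain. It was at 63.8, 61.1, 70.0, 61.2 and 76.9 CPM in Control iWAT libraries and at 43.6, 36.2, 35.5, 42.6 and 37.3 CPM in Ai-α4KO iWAT, without overlap. The log2FC was -0.78 (SE 0.10, FDR = 6.97e-05). BAT libraries were at 81.2, 67.8, 89.8, 73.1 and 80.4 CPM in Control and at 40.2, 34.2, 26.6, 37.2 and 32.2 CPM in Ai-α4KO libraries. This was also without overlap, with a log2FC of -1.24 (SE 0.13, FDR = 4.46e-06).

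Ppp2r5c encodes B56γ, known for acting on p53, and was the 1 subunit gene called higher in both depots. It was at 80.9, 86.4, 86.2, 90.3 and 83.5 CPM in Control iWAT libraries and at 119, 133, 152, 145 and 167 CPM in Ai-α4KO iWAT. Control libraries lay within 10 CPM of each other and below every Ai-α4KO library, and the log2FC was 0.74 (SE 0.10, FDR = 1.14e-04). In BAT it was at 80.5, 95.6, 85.4, 83.1 and 84.3 CPM in Control and at 113, 116, 132, 135 and 115 CPM in Ai-α4KO libraries. The groups did not overlap, and the log2FC was 0.48 (SE 0.10, FDR = 0.00107). With the muscle score the BAT value was 0.33 and did not pass (FDR = 0.0883).

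Ppp2r5b, the gene of B56β, and Ppp2r5e, the gene of B56ε, did not pass in either depot. Ppp2r5b ranged from 30.2 to 72.9 CPM in Control iWAT and from 30.1 to 51.7 CPM in Ai-α4KO iWAT (log2FC -0.24, FDR = 0.399). In BAT it ranged from 43.7 to 54.5 CPM in Control and from 30.2 to 46.03 CPM in Ai-α4KO libraries (-0.39, FDR = 0.013), and it passed without Ai-α4KO library 1 (-0.46, FDR = 0.00689). Ppp2r5e stayed between 38.0 and 68.4 CPM in all 20 libraries, with log2FCs of 0.12 in iWAT (FDR = 0.332) and -0.10 in BAT (FDR = 0.5).

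As shares of B56 FPKM, which do not depend on library scaling, Ppp2r5a made up 83.8% ± 1.5 in Control iWAT against 65.3% ± 3.45 in Ai-α4KO iWAT, and 86.4% ± 1.67 in Control BAT against 72.7% ± 2.22 in Ai-α4KO BAT (SD, n = 5 each). The share of Ppp2r5c was 3.88% ± 0.534 in Control iWAT against 14.1% ± 2.53 in Ai-α4KO iWAT, and 2.92% ± 0.468 in Control BAT against 10.2% ± 1.17 in Ai-α4KO BAT (SD, n = 5 each). Neither share overlapped between genotypes. The shares of Ppp2r5b and Ppp2r5e, which did not pass in either depot, were also higher in Ai-α4KO libraries without overlap. Ppp2r5b was at 4.22% ± 1.01 and 7.99% ± 1.91 in iWAT and 3.40% ± 0.306 and 6.57% ± 1.12 in BAT. Ppp2r5e was at 2.27% ± 0.446 and 5.35% ± 0.958 in iWAT and 2.14% ± 0.402 and 5.05% ± 0.603 in BAT (SD, n = 5 each, Control first). A share also rises where that of Ppp2r5a falls. The share of Ppp2r5d, which fell in CPM, was 5.77% ± 0.813 and 7.29% ± 0.386 in iWAT and 5.10% ± 0.799 and 5.45% ± 0.801 in BAT, Control first (SD, n = 5 each). Summed over the family, FPKM was 360 ± 63.6 in Control iWAT against 179.7 ± 20.7 in Ai-α4KO iWAT, and 413 ± 56.7 in Control BAT against 195 ± 18.5 in Ai-α4KO BAT (SD, n = 5 each). Without Ppp2r5a the sum was 57.5 ± 7.27 and 61.8 ± 1.19 in iWAT and 55.3 ± 1.92 and 53.1 ± 3.46 in BAT (SD, n = 5 each), with overlap in both depots. FPKM sums carry no TMM factor, and these factors ran from 0.833 to 0.909 in Control BAT and from 0.943 to 1.09 in Ai-α4KO BAT.

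**Figure D5:**
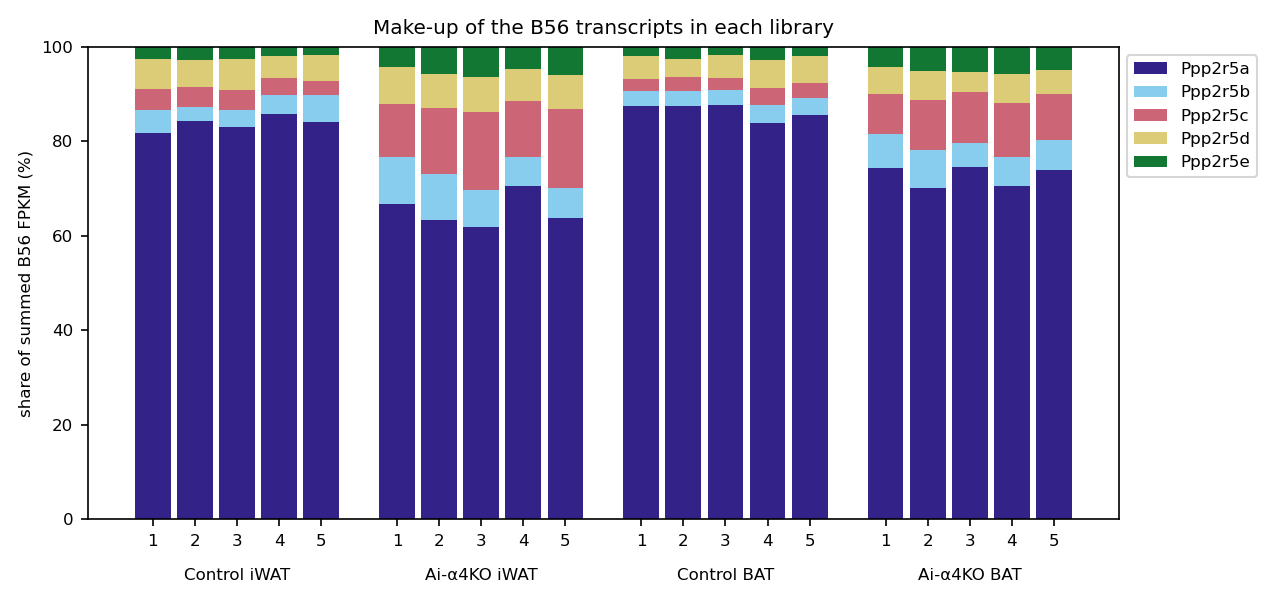
Share of the summed FPKM of the 5 B56 genes (y axis, percent, stacked to 100) in each of the 20 libraries (x axis, by group). The Ppp2r5a share is 81.9% to 85.9% in Control iWAT, 61.9% to 70.6% in Ai-α4KO iWAT, 83.9% to 87.8% in Control BAT and 70.1% to 74.6% in Ai-α4KO BAT.

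Across the families, B56 mRNAs made up 89.0% ± 1.30 of the summed FPKM of the 8 B subunit genes among the members in Control iWAT against 79.5% ± 1.90 in Ai-α4KO iWAT, and 85.5% ± 2.07 in Control BAT against 72.0% ± 4.52 in Ai-α4KO BAT (SD, n = 5 each). The share of Ppp2r2a and Ppp2r2d was 9.91% ± 1.29 and 19.1% ± 2.03 in iWAT, and 12.3% ± 1.74 and 18.7% ± 0.870 in BAT (SD, n = 5 each, Control first). In both depots these B55 shares of the genotypes did not overlap. Their summed FPKM itself was 39.5 ± 4.69 and 42.8 ± 2.74 in iWAT and 58.7 ± 7.43 and 50.5 ± 2.46 in BAT (SD, n = 5 each, Control first), with overlap in both depots, beside the smaller B56 sums of the Ai-α4KO libraries given above. The share of Ppp2r3a was 2.23% ± 0.670 in Control BAT against 9.32% ± 5.06 in Ai-α4KO BAT (SD, n = 5 each), and the muscle markers of these libraries are given above. With 7 further B subunit genes in the sum (Ppp2r2b, Ppp2r2c, Ppp2r3c, Ppp2r3d and the striatins Strn, Strn3 and Strn4), B56 made up 79.1% ± 1.81 in Control iWAT against 63.2% ± 2.79 in Ai-α4KO iWAT, and 76.8% ± 2.69 in Control BAT against 57.6% ± 5.21 in Ai-α4KO BAT (SD, n = 5 each). In that wider sum Ppp2r3a made up 2.0% ± 0.585 in Control BAT against 7.36% ± 3.82 in Ai-α4KO BAT (SD, n = 5 each). These shares count mRNA per length and say nothing of protein.

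Between the depots of Control mice, Ppp2r1b was lower in BAT and Ppp2r2d, Ppp2r3a and Ppp2r2a were higher, in a fit of all 20 libraries. Cell type markers moved with this comparison too, with 7 of 7 macrophage, 4 of 4 fibroblast and progenitor, 5 of 5 B cell, 4 of 4 T cell and 3 of 3 cycling-cell markers lower in Control BAT, and 3 of 4 endothelial and 4 of 4 brown adipocyte markers higher, and their part in it was not tested. Of 15230 genes tested 17.5% were called higher in BAT and 21% lower. The log2 differences were -1.12 for Ppp2r1b (SE 0.23, FDR = 4.38e-04), 0.99 for Ppp2r2d (SE 0.11, FDR = 8.18e-07), 1.44 for Ppp2r3a (SE 0.34, FDR = 0.00158) and 0.34 for Ppp2r2a (SE 0.10, FDR = 0.0096). Control libraries of the depots did not overlap in the first 3 of these genes, against 36.3% of all genes, and they overlapped in Ppp2r2a, whose call was lost in 18 of 31 alternative settings. Ppp2r5a was at 0.46 (FDR = 0.0129) and Ppp2r5e at 0.34 (FDR = 0.0147), and neither passed. With the muscle score as a covariate the call on Ppp2r2d was left (1.02). The value was then -0.84 for Ppp2r1b (FDR = 0.0159), 0.92 for Ppp2r3a (FDR = 0.0519) and 0.36 for Ppp2r2a (FDR = 0.0334).

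The change with genotype was compared between depots as an interaction in the same fit, where 4.86% of all 15230 genes were called. By edgeR 0 of the 10 subunit genes passed at an adjusted p below 0.01, and 3 had an unadjusted p below 0.05. The log2FC of Ppp2r2d in BAT less that in iWAT was -0.64 (SE 0.16, FDR = 0.0113), and for Ppp2r3a it was 1.68 (SE 0.48, FDR = 0.0241). DESeq2 called both, with FDR of 0.00542 and 0.00236, and with the muscle score the values were -0.62 for Ppp2r2d (FDR = 0.0278) and 1.27 for Ppp2r3a (FDR = 0.0774). Ppp2r5d differed by -0.43 (FDR = 0.0674). For Ppp2r5a the difference was -0.09 (SE 0.21, FDR = 0.799), and for Ppp2r1b, called in iWAT and not in BAT, it was 0.49 (SE 0.32, FDR = 0.306), so a difference between depots was not shown for either. The comparison of depots and the genotype comparisons share the Control libraries.

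Other genes of the PP2A family were read from the same fits, as a list of 38 without Igbp1, of which 37 were tested. In Ai-α4KO iWAT 10 were higher and 4 lower, against 21.5% and 18.8% of all genes. In Ai-α4KO BAT 3 were higher and 6 lower, smaller shares than the 25% and 24.8% of all genes. Of the B55 and PR72 genes outside the 10 members, Ppp2r2c did not pass the filter on low counts and was not tested, and Ppp2r2b, Ppp2r3c and Ppp2r3d did not pass the test in either depot. The catalytic subunits Ppp2ca and Ppp2cb did not pass in either depot. Ppp2ca was at a log2FC of 0.13 in iWAT (FDR = 0.258) and -0.12 in BAT (FDR = 0.467), and Ppp2cb at 0.27 (FDR = 0.0273) and -0.03 (FDR = 0.812). Both were higher in Control BAT than in Control iWAT, by 0.65 (FDR = 9.94e-05) and 0.35 (FDR = 0.00519). Among 10 inhibitors and their regulators, 4 rose and 1 fell in iWAT and 3 rose in BAT. Cip2a, an inhibitor listed in the table as C330027C09Rik, rose by 2.91 in iWAT (FDR = 5.4e-06) and 2.42 in BAT (FDR = 9.87e-07). Mastl, the kinase that turns ENSA and ARPP19 into B55 inhibitors, rose by 2.25 in iWAT (FDR = 5.88e-05) and 2.01 in BAT (FDR = 6.22e-05). Both are genes of dividing cells, and the cycling-cell markers rose beside them. Set rose in iWAT, by 0.53 (FDR = 0.00482), and Bod1, an inhibitor of B56 trimers, was the 1 that fell there, with a log2FC of -0.71 (FDR = 0.00236). Arpp19 itself rose in BAT, by 0.71 (FDR = 0.0078).

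Of the striatins, B subunits of the STRIPAK complex, Strn4 fell in BAT by 0.64 on the log2 scale (FDR = 0.00156), and no striatin passed in iWAT. Their partner Strip2 fell by 1.28 in iWAT (FDR = 0.00448) and by 1.56 in BAT (FDR = 1.21e-04). In the assembly group, Tiprl, another binder of free C subunits, rose by 0.39 in iWAT (FDR = 0.00486), while Lcmt1, the C subunit methyltransferase, had a log2FC of -0.37 there (FDR = 0.00317) and Ppme1, the methylesterase, fell by 0.51 in BAT (FDR = 0.00193). Of 10 genes of PP4 and PP6, whose catalytic subunits α4 also binds, 4 rose and 1 fell in iWAT, against 21.5% and 18.8% of all genes. In BAT 2 of them fell, where 24.8% of all genes were called lower. Ppp4r2 rose by 0.88 in iWAT (FDR = 2.47e-04) and Ppp4r1 by 0.75 (FDR = 1.89e-05).

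For the 2 members with the largest mean change, the genes with the nearest pattern were found by the root mean square difference of centred log2 CPM over the 20 libraries, among 15229 other genes. Nearest to Ppp2r5a were Adhfe1 (0.189), Bphl (0.196) and Ptprd (0.199), and nearest to Ppp2r5d were Pskh1 (0.144), Ppm1f (0.154) and Sun1 (0.163). Bphl, for example, had log2FCs of -1.64 in iWAT and -1.71 in BAT. Each of these distances is in log2 units per library, and genes measured in one library share its depth and its cell makeup.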

How the data were processed

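Poly(A) mRNA libraries (stranded kit, paired reads of 150 bp) of 20 samples were sequenced. The submitters' processing notes name mm10, bcl2fastq 2 and STAR 2.5.3a without their order. The counting tool, annotation release and filters are not given in the sources used here. The authors deposited an expected count per gene and library, not normalized, and an FPKM value, the count per transcript length and library total. Reads shared by near-identical transcripts are split by estimation, so paralog counts carry that uncertainty. Totals ran from 24023371 to 50384446.

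Expected counts were rounded and fitted in R 4.3.3 with edgeR 4.0.16 (filterByExpr defaults, TMM, glmQLFit) within each depot, and over all 20 libraries for the depot comparison and the interaction. Standard errors are the fold change over the root of the F statistic. CPM of single libraries carry no prior count, and a prior of 2 was used for log2 values. Paralog ratios were tested by exact permutation, two-sided, with Benjamini-Hochberg adjustment over 4 tests. Alternatives were DESeq2 1.42.0, limma 3.58.1 on log2 FPKM with pseudocounts of 1 and 0.1, other scalings, filters and thresholds, marker scores as covariates, a replicate block and leaving out libraries. The muscle score in iWAT, in the depot comparison and in the interaction, and leaving out Control iWAT 4 with Ai-α4KO iWAT 1, were chosen after seeing the data. The scripts were tested on simulated data. The members, gene lists and tests were chosen with earlier results of these data known. Named genes are the 10 members, Igbp1, genes of the PP2A and marker lists, and the 3 nearest in pattern to the 2 members with the largest mean change. Promoter windows come from RefSeq (GRCm38.p6). The result of 1 gene of the PP2A list is not reported here.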

Additional observations from a re-analysis of the deposited data

Results flagged for a closer look

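Among 44 groups of 5 libraries (the 10 subunit genes and Igbp1), Dixon's test at its 95% critical value of 0.71 marked 2, about as many as chance alone gives at 1 in 20. Both concern Ppp2r1a. Ai-α4KO iWAT library 1 was at 202.363 CPM, with the nearest library of its group at 152 CPM, and it is the library of that group with the most muscle marker RNA. Control iWAT library 4, with 6648 CPM of muscle markers, was at 182 CPM, inside its group's range of 177 to 207 CPM. With the muscle score the log2 fold change of Ppp2r1a in iWAT was -0.27 (adjusted p = 0.0545 by edgeR). Control BAT library 2 was at 184.402 CPM, with the nearest at 225 CPM. Leaving out the first brought Ppp2r1a past the threshold in iWAT (log2 fold change -0.39, adjusted p = 0.00275 by edgeR), and leaving out each BAT library in turn kept it past the threshold there (adjusted p between 3.19e-04 and 0.00608).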

How the results depend on the processing

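None of the 10 subunit genes changed direction under any alternative in a comparison where it was called in the main test. Values that did not pass changed sign under some, among them Ppp2r3a in BAT (down to -0.09), Ppp2r5e in BAT (up to 0.17) and Ppp2r5b between depots (down to -0.21). In iWAT the 4 called genes, Ppp2r1b, Ppp2r5a, Ppp2r5c and Ppp2r5d, stayed called with their direction in all 23 alternative settings, and in BAT the same held for Ppp2r2d, Ppp2r5a and Ppp2r5d in all 20. Requiring 2-fold left 2 subunit genes in iWAT, 2 in BAT and 2 between Control depots, where 22%, 31.5% and 22.7% of all genes passed, and an adjusted p below 0.05 gave 8 in BAT, where 63% of all genes passed, and 2 in the interaction, where 15.1% did. The muscle marker score left 3 in BAT and 1 between Control depots, against 28.1% and 28.3% of all genes, and DESeq2 gave 2 in the interaction, against 10.8% of all genes. In BAT that score did not overlap between the genotypes, so its fit there cannot separate muscle from genotype. Leaving out each library in turn gave 4 to 5 genes in iWAT, 5 to 8 in BAT, 3 to 5 between depots and 0 to 1 in the interaction, where 32.8% to 43.9%, 43% to 48%, 33.3% to 39.9% and 3.07% to 6.63% of all genes were called. The 8 in BAT came without Ai-α4KO library 1, and the 1 in the interaction without Control iWAT 3 or Control BAT 3 (Ppp2r2d) or without Ai-α4KO BAT 1 (Ppp2r3a). Of the 37 other PP2A genes tested, 14 were called in iWAT and 3 at 2-fold, 9 in BAT with 19 at an adjusted p below 0.05 and 5 at 2-fold, 14 between depots with 3 at 2-fold, and 1 in the interaction with 7 at 0.05 and 0 at 2-fold by edgeR. Of all genes 40.3% were called in iWAT, 49.8% in BAT and 38.5% between depots, and 3.83% at 2-fold in the interaction. Causes were not tested beyond the settings' own construction. Without TMM factors the median of all genes moved to 0.13 in iWAT, 0.23 in BAT and -0.23 between depots, so the modest values of Ppp2r1a and Ppp2r2a depend on scaling. Replicate numbers did not pair the samples (correlations of same-numbered libraries from -0.45 to 0.13 in iWAT and -0.15 to 0.22 in BAT). The replicate block gave 4 genes in iWAT and 5 in BAT, with Ppp2r1b (adjusted p = 0.00853) in place of Ppp2r1a (0.0104), 4 between depots, with Ppp2r5e (0.00974) in place of Ppp2r2a (0.0108), and 0 in the interaction, against 36.5%, 42.8%, 37.7% and 3.51% of all genes. With the replicate block the ratio tests have a smallest p of 0.0625, which the differences of -0.75, -0.33 and -0.97 all met in an exact sign-flip test.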
